A study of Mus musculus with 12 samples.

Results

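The 38 core astrocyte identity genes examined here are named markers of astrocytes, their transcription factors, their endfoot and junction genes, and the 3 brain metallothioneins. They were chosen by name, each symbol matched 1 gene identifier of the deposited count tables, and they are 38 of the 41388 genes listed there. The question was how these genes were expressed in astrocytes captured from aged mice labelled as astrocyte Bmal1 knockouts, against Cre-negative controls, and in the cells that the capture left behind. The RNA sequencing libraries number 12 and came from the brains of 8 mice on a C57BL\6 background, all with loxP-flanked Bmal1 alleles (Bmal fl/fl) and all collected at 20 months of age. The KO mice were Cre+, carrying ALDH1L1-CreERT2, a tamoxifen-dependent Cre recombinase driven by the promoter of Aldh1l1, which is itself one of the genes described. The WT mice were Cre-. Every mouse, Cre+ or Cre-, received 2 mg of tamoxifen per day by gavage for 5 days at 2 months of age. Brains were dissociated with collagenase and astrocytes were bound to magnetic beads by the surface antigen ACSA-2; the unbound cells are called flowthrough. The 4 groups are KO astrocytes (mice 60, 62, 73 and 132), WT astrocytes (mice 56, 57, 64 and 78), KO flowthrough (mice 60 and 132) and WT flowthrough (mice 56 and 64), and values below are listed in that order of mice.

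Astrocytes take up glutamate and convert it to glutamine, buffer extracellular ions, supply neurons with metabolic intermediates, and contact blood vessels through endfeet rich in water channels and gap junctions. Their identity is set up and kept by transcription factors that include SOX9 and the nuclear factor I family, while ID and HES proteins act downstream of BMP and Notch signals. Metallothioneins are small cysteine-rich proteins that bind zinc and copper and are induced by metals and glucocorticoids. BMAL1, encoded by Arntl, pairs with CLOCK and activates clock genes through the E-box sequence CACGTG, and astrocytes run such a clock of their own.

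The libraries held 38691406 to 51551942 counts, and a count of 3 corresponds to 0.0582 to 0.0775 CPM (counts per 1000000 counts of the library), a limit that covers counting error only. All 38 genes stood above the filter on low counts in every comparison. Arntl itself was not lower under the KO label. It averaged 11.2 ± 1.7 CPM in KO astrocytes and 7.18 ± 1.4 CPM in WT astrocytes (SD, n = 4 each), a log2 difference of 0.66 ± 0.19 (SE) that did not pass the test (adjusted p = 0.473). The gene count sums every exon, so it does not show whether the loxP-flanked stretch was removed; KO and WT below always mean libraries labelled so. KO 73 and WT 78 expressed Xist (2411 and 1133 counts, against at most 10 in the other 10 libraries), and the other 6 astrocyte libraries and all 4 flowthrough libraries carried Y-linked transcripts instead and are called male-type here. KO 73 also had the highest summed level of 16 microglia markers among the astrocyte libraries, at 4526 CPM against 979 to 1878 CPM in the other 7. The differences that KO 73 moved most are given with and without it. In bulk RNA, fewer cells of a type and less RNA per cell cannot be told apart.

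Levels are compared between genes as RPKM, that is per kilobase of exon, and between libraries as CPM scaled with TMM factors. Among the 38 genes Mt1 was the most abundant, at 3419.8 ± 981 RPKM in KO and 4360.4 ± 1009 RPKM in WT astrocytes (SD, n = 4 each, as for all means over astrocyte libraries), rank 16 of the 20997 genes tested. Mt3 followed with 2978 ± 938 RPKM in KO and 3427 ± 772 RPKM in WT astrocytes, Aldoc with 2775 ± 1123 RPKM in KO and 2489.6 ± 264 RPKM in WT astrocytes and Ndrg2 with 1839 ± 665 RPKM in KO and 1928 ± 265 RPKM in WT astrocytes. Mt1 and Mt3, and Mt3 and Aldoc, differed by less than the sum of their SDs in WT astrocytes, while Aldoc, Ndrg2 and then S100b (746 ± 216 RPKM in KO and 958 ± 292 RPKM in WT astrocytes) were further apart than that. Glul, which encodes glutamine synthetase, was at 331 ± 46.5 RPKM in KO and 484 ± 97.7 RPKM in WT astrocytes, and Aldh1l1 at 41.8 ± 21.5 RPKM in KO and 49.0 ± 5.95 RPKM in WT astrocytes. The transcription regulators were low per length, at or under 30.1 RPKM in WT astrocytes, with the exception of Id3 at 141 ± 14.6 RPKM in KO and 187 ± 45.8 RPKM in WT astrocytes. In WT astrocytes Hes5 had the lowest level of the 38 (4.49 ± 1.89 RPKM in KO and 5.72 ± 1.81 RPKM in WT astrocytes), just under Btbd17 (3.21 ± 1.08 RPKM in KO and 5.82 ± 1.42 RPKM in WT astrocytes), and still ranked 5972 of 20997. By this measure 28 of the 38 were in the top 10% of tested genes in WT astrocytes.

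**Figure D1:**
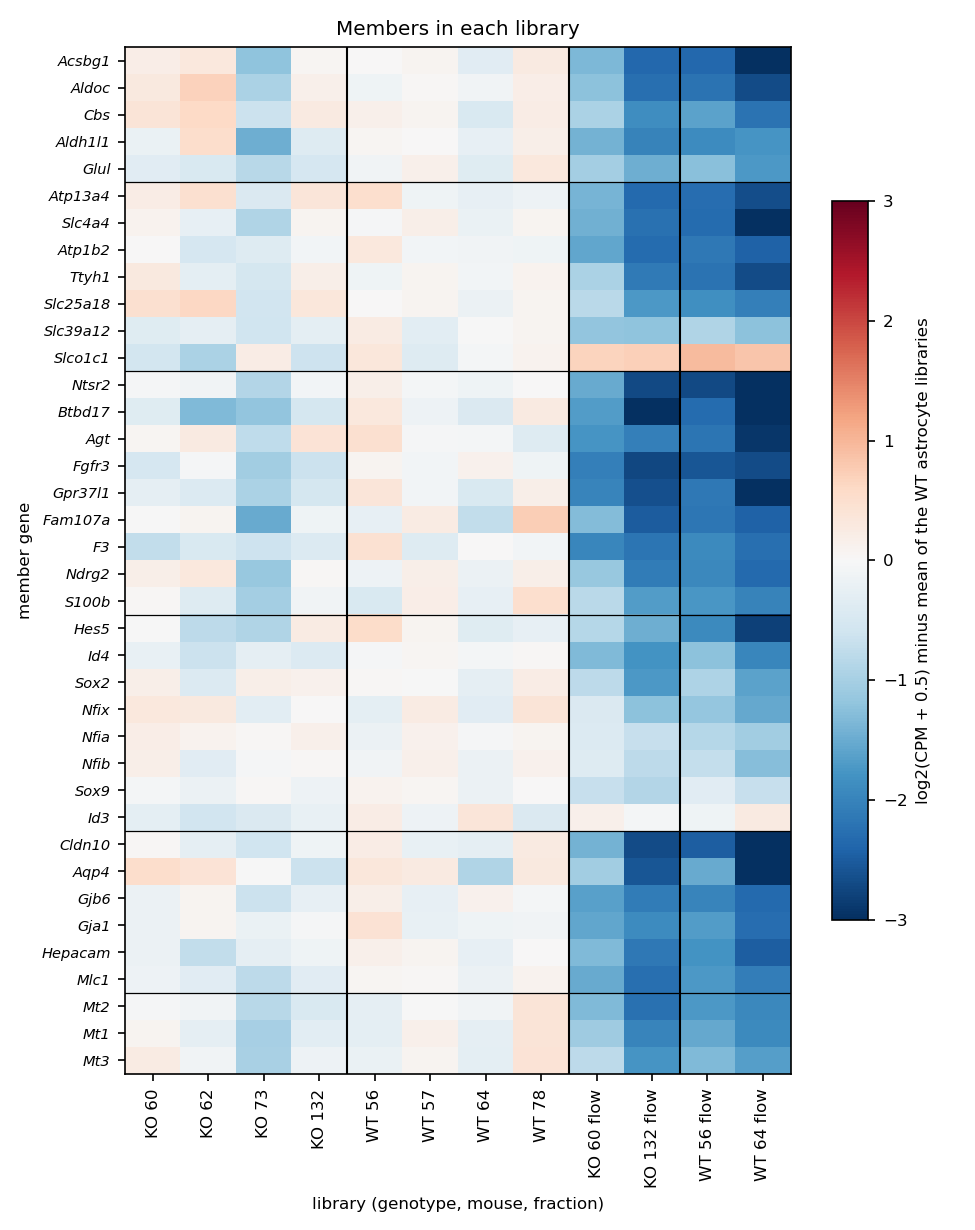
Heat map of the 38 genes (rows, grouped by role) in the 12 libraries (columns: KO astrocytes, WT astrocytes, KO flowthrough, WT flowthrough). Colour is log2(CPM + 0.5) minus the mean of the 4 WT astrocyte libraries; blue in the KO 73 column marks the library that was lowest of the 8 for 24 genes, and the flowthrough columns are mostly blue, apart from Slco1c1 and Id3.

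The comparison of the fractions asks whether the capture enriched the genes that define its target. Of the 38 genes, 36 rose in the astrocyte fraction and 1, Slco1c1, fell, in an edgeR quasi-likelihood test over 12 libraries (adjusted p under 0.05; of the 20997 genes tested 24.8% rose and 24.4% fell, 49.2% in all). The median log2 difference was 1.78, against 0.004 over all genes. Ntsr2, a neurotensin receptor, rose most (2.34 ± 0.25), followed by Btbd17 (2.30 ± 0.39) and Atp13a4 (2.29 ± 0.25), while Sox9 had the smallest rise that passed (0.60 ± 0.10). Id3 did not pass (-0.23 ± 0.16, adjusted p = 0.232). In 31 genes every astrocyte library was above every flowthrough library (12.2% of all genes were separated that way), and in Slco1c1 every one was below (17.0% of all genes). The genes that rose but overlapped were Aldh1l1, S100b, Fam107a, Hes5 and Mt3. By role the median difference was 2.17 for receptors and signalling genes, 1.91 for transporters, 1.84 for junction and endfoot genes, 1.74 for enzymes, 1.44 for metallothioneins and 0.97 for transcription regulators.

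In the 4 mice with both fractions, the astrocyte library was above the flowthrough library of the same mouse in 4 of 4 mice for 36 genes, in 2 of 4 for Id3 and in 0 of 4 for Slco1c1. The median over the 38 genes was 1.29 in KO mouse 60 and 1.92 in KO mouse 132, against 1.89 in WT mouse 56 and 2.08 in WT mouse 64. Summed over the 38 genes, astrocytes held 17729 to 36034 CPM (KO) and 27637 to 36226 CPM (WT), and flowthrough held 8015 to 14140 CPM (KO) and 6951 to 9084 CPM (WT). The 39 other astrocyte markers, none of them among the 38, all rose in the captured fraction (median 1.80). Markers of other cells moved too: 11 of 12 neuron genes rose (median 1.61), as did 6 of 14 oligodendrocyte genes (0.98) and 7 of 8 oligodendrocyte precursor genes (1.31). All 16 microglia genes fell (-3.46), as did 11 of 12 endothelial genes (-1.13) and all 7 choroid plexus genes (-2.37), and none of 7 ependymal genes passed (-0.61). Flowthrough came from male-type libraries only, and among the 8 libraries of the 4 mice with both fractions, all male-type, the same 37 genes passed. Libraries were also scaled so that the 39 other astrocyte markers had equal mean levels, a choice made after seeing the data. The members' median was then 0.09, while that of all genes was -1.75. Of the 38 genes 18 passed, 9 of them higher and 9 lower, with all 3 metallothioneins and 7 of 8 transcription regulators below 0. The share of all genes that passed under this scaling is not given here, so these counts have no background.

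**Figure D2:**
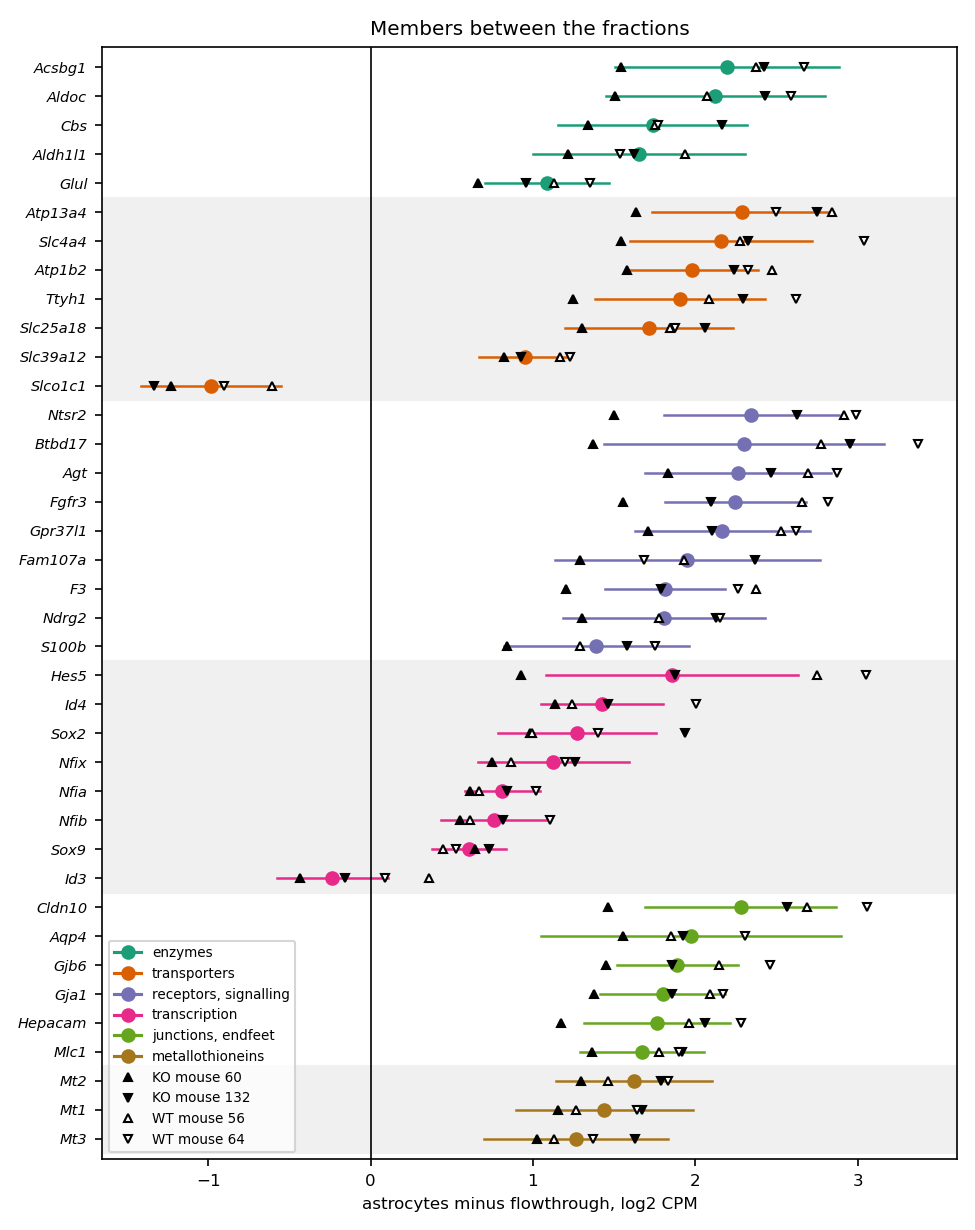
Astrocytes minus flowthrough (x axis, log2 CPM) for each gene, coloured by role; circles are the fitted difference, bars its 95% interval and triangles the difference within each of 4 mice (KO filled, WT open). Under TMM scaling every point of Slco1c1 lies left of 0, Id3 straddles 0, and the fitted differences of the other 36 run between 0.60 and 2.34.

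The KO and WT astrocyte libraries were compared to see whether aged astrocytes labelled as lacking BMAL1 kept the expression of these genes. None of the 38 passed the edgeR test (0.232% of 18527 genes did, 0.146% higher and 0.0864% lower), and the smallest adjusted p was 0.566, for F3 and Btbd17. By DESeq2 none passed either, and at an unadjusted p under 0.05 the count was 8 of 38, all lower in KO (at that threshold 2.86% of all genes were lower and 5.37% differed in either direction). Those 8 were Btbd17 (-0.85 ± 0.27), F3 (-0.58 ± 0.18), Gpr37l1 (-0.54 ± 0.21), Glul (-0.54 ± 0.18), Fgfr3 (-0.51 ± 0.19), Slc39a12 (-0.39 ± 0.15), Mlc1 (-0.38 ± 0.15) and Id4 (-0.38 ± 0.13), all as log2 KO minus WT. Without KO 73 the differences were -0.74 for Btbd17, -0.56 for F3, -0.43 for Gpr37l1 and -0.45 for Glul. They were -0.37 for Fgfr3, -0.32 for Slc39a12, -0.28 for Mlc1 and -0.43 for Id4. In direction, 29 genes were lower and 9 higher, with a median of -0.23 against 0.004 over all genes; the direction turned, to 24 higher, when libraries were scaled to the other astrocyte markers described below. For 34 of the 38 genes the 95% interval lay within a 2-fold change in either direction. The intervals of the other 4 (Btbd17, Fam107a, Hes5 and Gpr37l1) reached past a 2-fold fall, and none reached a 2-fold rise.

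Of the 38 genes, F3 and Id4 were those whose KO and WT astrocyte libraries did not overlap, both lower in KO. Over all genes, 2.27% were separated in that direction and 1.76% in the other. F3 and Id4 are named for that reason, after their values were seen. F3 encodes tissue factor, the cell-surface starter of coagulation that is abundant in astrocytes. F3 had 329.6, 403, 358 and 415 CPM in KO astrocytes, against 762, 422, 555 and 525 CPM in WT astrocytes. Id4 had 16.7, 12.4, 16.2 and 14.7 CPM in KO astrocytes, against 19.1, 20.4, 18.9 and 20.3 CPM in WT astrocytes. The median by role was -0.37 for receptors and signalling genes, -0.33 for metallothioneins, -0.23 for junction and endfoot genes, -0.18 for transporters, -0.06 for enzymes and -0.06 for transcription regulators; under the scaling to other astrocyte markers only the receptors (-0.05) and metallothioneins (-0.006) stayed below 0. Without KO 73 the medians were -0.18 for receptors and signalling genes, -0.18 for metallothioneins, -0.12 for junction and endfoot genes, -0.01 for transporters and -0.08 for transcription regulators, while that of the enzymes was 0.18, with 4 of 5 higher. Over the 38 genes the median without KO 73 was -0.12 (12 higher, 26 lower), and among the 6 male-type libraries, without KO 73 and WT 78, it was -0.03 (18 higher, 20 lower). With the mean of microglia, oligodendrocyte, endothelial and neuron markers as a covariate it was -0.03.

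**Figure D3:**
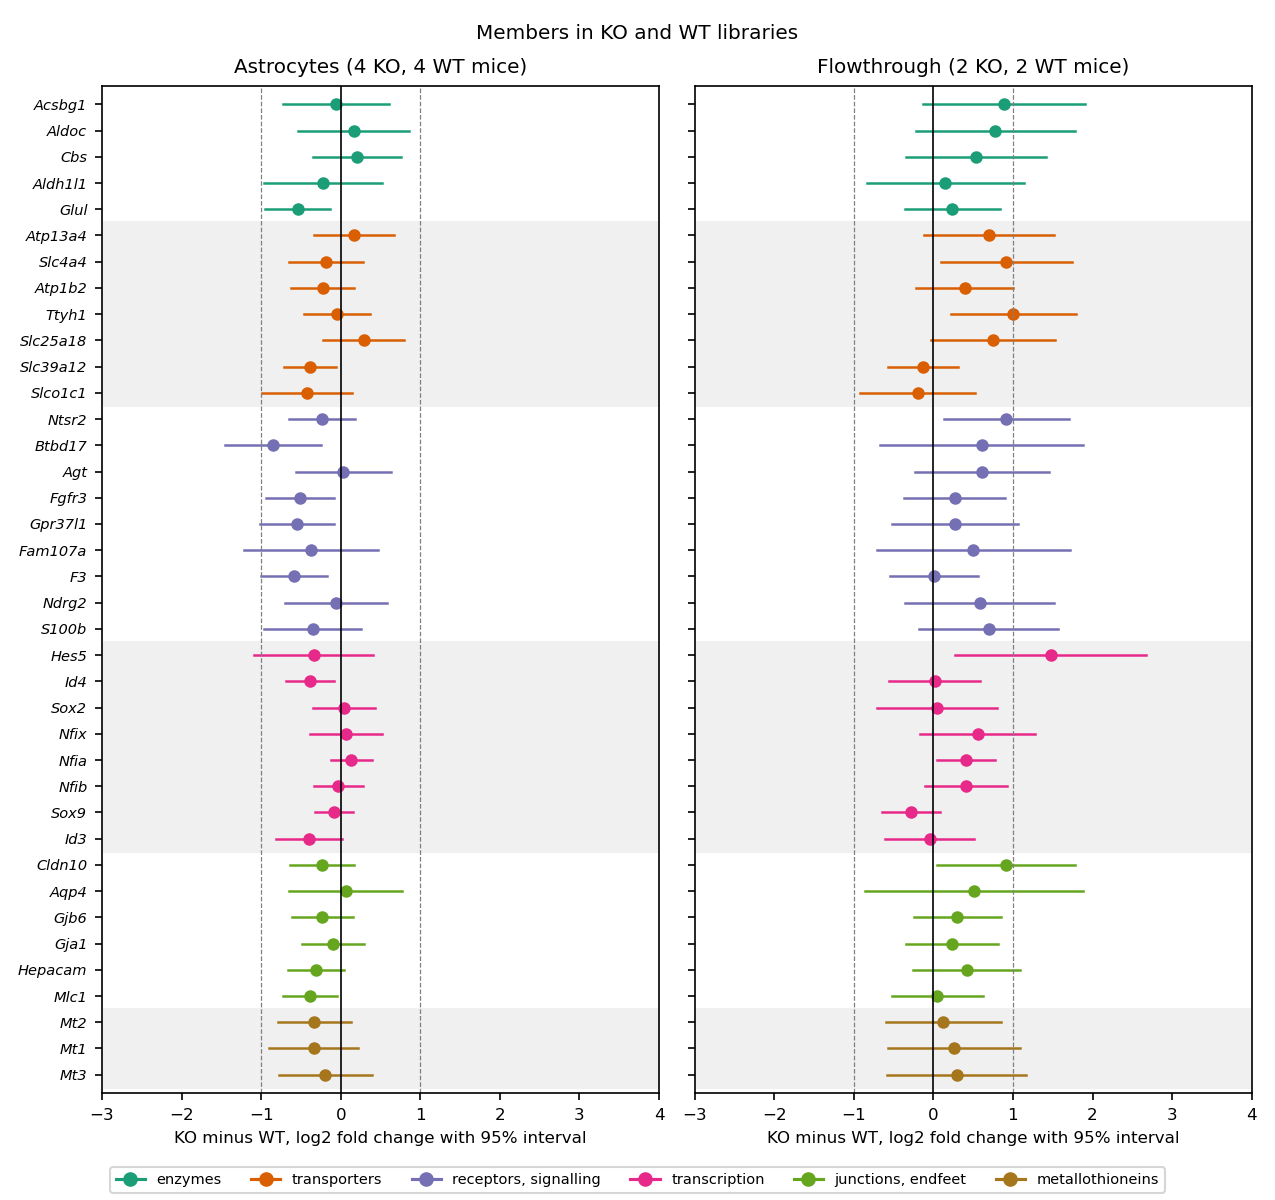
KO minus WT difference (x axis, log2 fold change) of each gene with its 95% interval, in astrocytes (left, n = 4 mice a group) and flowthrough (right, n = 2 mice a group); colour marks the role and dashed lines a 2-fold change. Under TMM scaling, 29 points lie left of 0 in astrocytes and 34 lie right of 0 in flowthrough, and none of the differences passed the test in either fraction.

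Among the enzymes, Aldh1l1 (ENSMUSG00000030088, chromosome 6, 90486427 to 90600203) encodes 10-formyltetrahydrofolate dehydrogenase of folate metabolism. Aldh1l1 had 191, 315, 79.3 and 169 CPM in KO astrocytes, against 227, 223, 185 and 249 CPM in WT astrocytes. KO 73 was the lowest and KO 62 the highest of the 8, the other 2 KO libraries lay close to the WT range, and the difference was -0.22 ± 0.33 (adjusted p = 0.995). Without KO 73 it was 0.03, so its sign rests on that library. Aldh1l1 in flowthrough had 81.9 and 54.8 CPM in KO libraries, against 59.4 and 63.6 CPM in WT libraries, and the rise in astrocytes was 1.65 ± 0.30 (adjusted p = 0.000949). Part of its exon sequence overlaps a gene on the opposite strand, as for Glul, Ttyh1, Nfia, Nfix, Id4 and Hes5, and the strand setting of the counting was not given, so these 7 counts may include reads of the other strand. Glul (ENSMUSG00000026473, chromosome 1, 153899944 to 153909723), glutamine synthetase, had 1246, 1154, 882 and 1111 CPM in KO astrocytes, against 1463, 1771, 1232 and 1965 CPM in WT astrocytes. The groups overlapped by 1 KO library above the lowest WT value, and the difference of -0.54 ± 0.18 (adjusted p = 0.655) had a 95% interval of -0.95 to -0.13. Glul in flowthrough stood at 786 and 571 CPM in KO libraries, against 668 and 482 CPM in WT libraries, and its rise in astrocytes (1.09 ± 0.17, adjusted p = 0.000457) was the smallest among the enzymes. Cbs (ENSMUSG00000024039, chromosome 17, 31612623 to 31637199), cystathionine beta-synthase of the transsulfuration pathway, was the enzyme most in the other direction. Cbs had 180.3, 208, 88.8 and 168 CPM in KO astrocytes, against 153, 147, 101 and 161 CPM in WT astrocytes. Of the KO libraries 3 exceeded every WT library and KO 73 was below all of them, and the difference was 0.21 ± 0.25 (adjusted p = 0.995). Cbs in flowthrough had 71.1 and 37.4 CPM in KO libraries, against 45.5 and 29.6 CPM in WT libraries, with a rise in astrocytes of 1.74 ± 0.27 (adjusted p = 0.000352). Aldoc, the brain aldolase of glycolysis (0.16 ± 0.31), and Acsbg1, an acyl-CoA synthetase (-0.06 ± 0.30), also had KO 62 highest and KO 73 lowest of the 8 libraries. Without KO 73 the differences were 0.41 for Cbs, 0.40 for Aldoc and 0.18 for Acsbg1, so the sign of Acsbg1 turned as well.

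Among the transporters, Atp1b2 (ENSMUSG00000041329, chromosome 11, 69599736 to 69605942) encodes the beta subunit of the sodium pump that carries the ACSA-2 antigen, so its enrichment, counted among the 36, follows from how the fraction was chosen and is no finding. Atp1b2 had 1571, 1084, 1181 and 1469.6 CPM in KO astrocytes, against 1934, 1451, 1449.8 and 1411 CPM in WT astrocytes. WT 56 stood above the other 7 libraries and the lowest were KO 62 and KO 73, with a difference of -0.23 ± 0.18 (adjusted p = 0.995). Atp1b2 in flowthrough had 526 and 312 CPM in KO libraries, against 349 and 289 CPM in WT libraries (astrocytes minus flowthrough 1.98 ± 0.19). Slc25a18 (ENSMUSG00000004902, chromosome 6, 120773768 to 120793982), a mitochondrial glutamate carrier, had the largest positive KO minus WT value of the 38. Slc25a18 had 499, 546, 239 and 451 CPM in KO astrocytes, against 356, 379, 314 and 379 CPM in WT astrocytes. KO 60, 62 and 132 were above every WT library and KO 73 below every one, and the difference was 0.29 ± 0.23 (adjusted p = 0.995). Slc25a18 in flowthrough had 202 and 108 CPM in KO libraries, against 99.4 and 85.6 CPM in WT libraries, and it rose in astrocytes by 1.72 ± 0.24 (adjusted p = 0.000182). Atp13a4 (ENSMUSG00000038094, chromosome 16, 29395853 to 29544864), a P-type ATPase, had 59.2, 70.9, 37.9 and 65.7 CPM in KO astrocytes, against 72.7, 47.0, 43.2 and 46.1 CPM in WT astrocytes. WT 56 again stood apart, here at the level of the highest KO libraries, and the difference was 0.17 ± 0.23 (adjusted p = 0.995). Atp13a4 in flowthrough had 19.1 and 9.72 CPM in KO libraries, against 10.1 and 7.62 CPM in WT libraries, and it rose in astrocytes by 2.29 ± 0.25 (adjusted p = 5.02e-05). Ttyh1, a membrane protein of the tweety family (-0.05 ± 0.18), the sodium bicarbonate cotransporter gene Slc4a4 (-0.18 ± 0.21) and the zinc transporter gene Slc39a12 (-0.39 ± 0.15) all had values below 0. With KO 73 left out, the differences were 0.49 for Slc25a18, 0.32 for Atp13a4, -0.01 for Slc4a4 and 0.07 for Ttyh1.

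Slco1c1 (ENSMUSG00000030235, chromosome 6, 141524386 to 141570177) encodes an organic anion transporter that carries thyroid hormone and is known from brain endothelial cells as well as astrocytes. It was the gene that fell in the captured fraction (-0.98 ± 0.20, adjusted p = 0.00177). Slco1c1 had 82.9, 62.7, 144 and 80.0 CPM in KO astrocytes, against 154, 94.0, 117 and 132 CPM in WT astrocytes, and 194 and 201 CPM in KO flowthrough, against 235 and 218 CPM in WT flowthrough. All 4 flowthrough libraries were above all 8 astrocyte libraries, and KO 73 was the highest of the KO astrocytes. Endothelial markers, 11 of 12 of which fell in the same comparison, summed to 531 to 988 CPM in KO astrocytes and 434 to 1234 CPM in WT astrocytes, and to 1691 to 1931 CPM in KO flowthrough and 1061 to 1644 CPM in WT flowthrough. Their part in the Slco1c1 values was not tested. KO minus WT for Slco1c1 was -0.42 ± 0.25 (adjusted p = 0.976) in astrocytes and -0.20 ± 0.33 (adjusted p = 1) in flowthrough; without KO 73 it was -0.72 in astrocytes.

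Since BMAL1 binds CACGTG, promoter windows of 250 bases before to 50 after each annotated start (RefSeq, GRCm38.p6) were searched for it. A window was at hand for 34 of the 38 genes and not for Atp1b2, Sox9, Nfib and Aqp4. CACGTG, which reads the same on both strands, occurred in 3 of the 34 (8.82%), against 8.09% of 27025 genes with a window. The 3 were Cbs, with the motif 229 bases upstream of the start, Ntsr2, 152 bases upstream, and Slco1c1, 19 bases downstream. The deposited coordinates start Slco1c1 32 bases further downstream than RefSeq, which puts the motif 13 bases upstream of that start; for Cbs the starts lie 6 bases apart and for Ntsr2 they are the same. They are shown 5′ to 3′ to base 30 after the start, with CACGTG in capitals; Cbs is chr17:31637176-31637455, minus strand, Ntsr2 chr12:16653220-16653499, plus strand, and Slco1c1 chr6:141524104-141524383, plus strand.
Cbs: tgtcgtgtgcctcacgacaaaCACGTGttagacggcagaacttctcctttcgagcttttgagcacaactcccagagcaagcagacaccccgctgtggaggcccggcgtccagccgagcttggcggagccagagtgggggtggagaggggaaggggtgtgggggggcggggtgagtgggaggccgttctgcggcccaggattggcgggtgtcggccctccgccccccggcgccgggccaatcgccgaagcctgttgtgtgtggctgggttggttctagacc
Ntsr2: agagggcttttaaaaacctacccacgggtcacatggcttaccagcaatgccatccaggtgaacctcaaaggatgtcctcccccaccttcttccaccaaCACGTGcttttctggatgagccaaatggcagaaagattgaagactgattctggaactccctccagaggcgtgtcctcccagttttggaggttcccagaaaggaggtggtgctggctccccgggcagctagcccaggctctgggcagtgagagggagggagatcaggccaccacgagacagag
Slco1c1: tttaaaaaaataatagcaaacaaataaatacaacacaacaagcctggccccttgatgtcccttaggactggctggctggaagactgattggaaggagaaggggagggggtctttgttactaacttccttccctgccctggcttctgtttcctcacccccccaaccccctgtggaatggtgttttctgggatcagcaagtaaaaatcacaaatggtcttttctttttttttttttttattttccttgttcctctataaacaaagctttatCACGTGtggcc
Log2 KO minus WT of these 3 genes in astrocytes was 0.21 ± 0.25 for Cbs, -0.24 ± 0.19 for Ntsr2 and -0.42 ± 0.25 for Slco1c1, on both sides of 0 and none past the test. A letter match is not a binding site.

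The group called receptors and signalling genes had the largest median difference between the fractions and the lowest median of KO minus WT. This group also holds Btbd17 and Fam107a, described here as neither receptors nor signalling proteins. Its KO minus WT median is the value of Fam107a (-0.37). Btbd17 (ENSMUSG00000000202, chromosome 11, 114791217 to 114795945), a BTB domain gene, had 13.9, 6.92, 7.69 and 12.5 CPM in KO astrocytes, against 22.6, 16.2, 13.3 and 22.02 CPM in WT astrocytes. KO 60 was the KO library that overlapped the WT range, and the difference of -0.85 ± 0.27 (adjusted p = 0.566) was the largest of the 38. Its 95% interval was -1.45 to -0.25. Btbd17 in flowthrough had 5.33 and 1.57 CPM in KO libraries, against 3.28 and 1.25 CPM in WT libraries, with a rise in astrocytes of 2.30 ± 0.39 (adjusted p = 0.000668). Ntsr2 (ENSMUSG00000020591, chromosome 12, 16653470 to 16660236), the neurotensin receptor of astrocytes, had 191, 179.9, 105 and 183 CPM in KO astrocytes, against 221, 186, 177 and 197 CPM in WT astrocytes. KO 73 was far below the other 7, which spanned 177 to 221 CPM in both groups, and the difference was -0.24 ± 0.19 (adjusted p = 0.995), or -0.08 without KO 73. Ntsr2 in flowthrough had 67.4 and 29.6 CPM in KO libraries, against 29.3 and 22.2 CPM in WT libraries, and it rose in astrocytes by 2.34 ± 0.25 (adjusted p = 3.71e-05). Agt (ENSMUSG00000031980, chromosome 8, 124556534 to 124569706), the angiotensin precursor, was the gene of this group with a positive value. Agt had 719.9, 839, 410.2 and 918 CPM in KO astrocytes, against 974, 672, 664 and 528 CPM in WT astrocytes. Both groups spread widely and overlapped, with a difference of 0.03 ± 0.27 (adjusted p = 0.996), or 0.22 without KO 73. Agt in flowthrough had 203 and 166 CPM in KO libraries, against 150.4 and 90.7 CPM in WT libraries, and it rose in astrocytes by 2.26 ± 0.26 (adjusted p = 6.39e-05).

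Fgfr3, a fibroblast growth factor receptor, had 153, 213, 107 and 141 CPM in KO astrocytes, against 231, 207, 239 and 202 CPM in WT astrocytes; KO 62 was inside the WT range and the other 3 were below it. Gpr37l1, an astrocytic G protein-coupled receptor, had 457, 416, 285 and 378 CPM in KO astrocytes, against 713, 516, 398 and 624 CPM in WT astrocytes, with KO 60 and KO 62 inside the WT range. S100b, a calcium-binding protein (-0.35 ± 0.27, adjusted p = 0.995), Fam107a, an actin-associated protein (-0.37 ± 0.38, adjusted p = 0.995), and Ndrg2, a marker of mature astrocytes (-0.06 ± 0.29, adjusted p = 0.996), had their lowest value of all 8 libraries in KO 73; without it the differences were -0.18 for S100b, -0.12 for Fam107a and 0.17 for Ndrg2.

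Among the junction and endfoot genes, Aqp4 (ENSMUSG00000024411, chromosome 18, 15389394 to 15403684), the water channel of endfeet, varied within both groups. Aqp4 had 654, 607, 450.4 and 291 CPM in KO astrocytes, against 579.8, 551, 243 and 557 CPM in WT astrocytes. The spread was more than 2-fold within each group, the difference was 0.06 ± 0.31 (adjusted p = 0.996), and its interval of -0.64 to 0.77 was among the widest. Aqp4 in flowthrough had 222 and 76.6 CPM in KO libraries, against 161 and 49.1 CPM in WT libraries, and it rose in astrocytes by 1.97 ± 0.42 (adjusted p = 0.00259). Mlc1 (ENSMUSG00000035805, chromosome 15, 88955884 to 88979007) encodes a membrane protein of perivascular endfeet. Mlc1 had 395, 343, 253 and 342 CPM in KO astrocytes, against 451, 445, 387 and 466 CPM in WT astrocytes. KO 60 lay inside the WT range and the other 3 KO libraries below it, and the difference was -0.38 ± 0.15 (adjusted p = 0.815). Mlc1 in flowthrough had 154 and 90.5 CPM in KO libraries, against 132 and 104 CPM in WT libraries, and it rose in astrocytes by 1.67 ± 0.17 (adjusted p = 3.62e-05). Hepacam, the adhesion partner of MLC1, was -0.31 ± 0.16. The gap junction genes were -0.09 ± 0.17 for Gja1 and -0.23 ± 0.17 for Gjb6, and the claudin gene Cldn10 was -0.23 ± 0.18, all log2 KO minus WT and none past the test. Without KO 73 these were -0.06 for Gja1, -0.12 for Gjb6 and -0.13 for Cldn10, and Aqp4 was at 0.10.

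The transcription regulators had the smallest median difference between the fractions. Sox9 (ENSMUSG00000000567, chromosome 11, 112782224 to 112787760), an HMG box factor required for astrocyte fate, had 80.2, 73.5, 84.6 and 75.1 CPM in KO astrocytes, against 89.8, 86.7, 73.9 and 83.3 CPM in WT astrocytes. The groups overlapped and the difference of -0.08 ± 0.11 (adjusted p = 0.995) had a 95% interval of -0.32 to 0.16, the narrowest of the 38. Sox9 in flowthrough had 51.3 and 45.4 CPM in KO libraries, against 65.9 and 51.2 CPM in WT libraries, and it rose in astrocytes by 0.60 ± 0.10 (adjusted p = 0.000714). Nfia (ENSMUSG00000028565, chromosome 4, 97772734 to 98118874), a nuclear factor I gene, had 377, 349.6, 337 and 364 CPM in KO astrocytes, against 287, 359, 318 and 347 CPM in WT astrocytes, with overlapping groups and a difference of 0.13 ± 0.11 (adjusted p = 0.995). Nfia in flowthrough had 247 and 203 CPM in KO libraries, against 180.5 and 157 CPM in WT libraries, and it rose in astrocytes by 0.81 ± 0.11 (adjusted p = 0.000132). Id3 (ENSMUSG00000007872, chromosome 4, 136143497 to 136145755), an inhibitor of basic helix-loop-helix factors, lay in the same range in both fractions. Id3 had 267, 220.3, 243 and 279 CPM in KO astrocytes, against 383, 294, 419.8 and 240.5 CPM in WT astrocytes. Id3 in flowthrough had 361 and 312 CPM in KO libraries, against 299 and 395 CPM in WT libraries. WT 56, 57 and 64 were above every KO astrocyte library and WT 78 was among them, with a difference of -0.40 ± 0.18 (adjusted p = 0.933). Of the others, Sox2 (0.04 ± 0.17), Nfib (-0.03 ± 0.14) and Nfix (0.07 ± 0.20) were near 0. Hes5, a Notch target (-0.34 ± 0.33), was measured at 3.78 to 11.2 CPM in the astrocyte libraries. Its interval was wide (-1.08 to 0.40), and its coefficient of variation was 42.05% in KO and 31.7% in WT astrocytes. Without KO 73 the differences were -0.12 for Sox9, -0.01 for Sox2, 0.18 for Nfix and -0.17 for Hes5.

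The metallothionein genes lie side by side on chromosome 8: Mt3 (ENSMUSG00000031760, chromosome 8, 94152607 to 94154148), Mt2 (ENSMUSG00000031762, chromosome 8, 94172618 to 94173567) and Mt1 (ENSMUSG00000031765, chromosome 8, 94179089 to 94180325), all on the plus strand. Mt1 and Mt2 are close paralogs, and the treatment of reads that map to more than 1 gene was not given, so their split is uncertain. The promoters of Mt1 and Mt2 are shown because these genes are induced through metal response elements; the element's core, TGCGCNC or TGCACNC on either strand, is in capitals. Mt1 is chr8:94178839-94179118, plus strand, and Mt2 chr8:94172368-94172647, plus strand, in the same RefSeq windows to base 30 after the start.
Mt1: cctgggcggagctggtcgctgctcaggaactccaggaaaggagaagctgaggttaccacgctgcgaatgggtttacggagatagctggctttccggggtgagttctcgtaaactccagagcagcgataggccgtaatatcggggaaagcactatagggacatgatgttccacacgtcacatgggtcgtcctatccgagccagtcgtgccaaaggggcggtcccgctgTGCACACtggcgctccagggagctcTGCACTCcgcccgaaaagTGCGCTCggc
Mt2: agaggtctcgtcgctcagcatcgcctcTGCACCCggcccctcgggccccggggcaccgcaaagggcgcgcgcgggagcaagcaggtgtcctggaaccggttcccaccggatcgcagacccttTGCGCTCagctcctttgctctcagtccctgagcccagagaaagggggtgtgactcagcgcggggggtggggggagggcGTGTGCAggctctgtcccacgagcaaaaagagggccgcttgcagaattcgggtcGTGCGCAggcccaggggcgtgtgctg
Mt1 held 3 such cores and Mt2 4, where 1.97% of all 32851 windows held 3 or more. Mt3 held 1. In Mt1 the cores TGCACTC and TGCGCTC lie after the annotated start, as does GTGCGCA in Mt2. Sequence outside these windows was not searched, so cores beyond them, or near other starts, are not counted. As a check of strand, the last printed bases were sought in reference transcripts of each gene. They were found for Cbs, Ntsr2 and Mt1, and not for Mt2 and Slco1c1. Over the 34 genes with a window, 10 held at least 1 core (29.4%), against 28.2% of all genes.

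The 3 metallothionein genes had the same astrocyte libraries at their extremes. Mt1 had 2447, 1927, 1157 and 1856 CPM in KO astrocytes, against 1899, 2572, 1922 and 3025 CPM in WT astrocytes. Mt2 had 363, 344, 207 and 271 CPM in KO astrocytes, against 305, 369.5, 343 and 484 CPM in WT astrocytes. Mt3 had 2153, 1691, 929.6 and 1636 CPM in KO astrocytes, against 1576, 1919.9, 1481 and 2399 CPM in WT astrocytes. In each, KO 73 was the lowest and WT 78 the highest of the 8 libraries, and the remaining values overlapped. The differences were -0.34 ± 0.25 (adjusted p = 0.995) for Mt1, -0.33 ± 0.20 (adjusted p = 0.977) for Mt2 and -0.19 ± 0.26 (adjusted p = 0.995) for Mt3. Without KO 73 they were -0.18 for Mt1, -0.20 for Mt2 and -0.0076 for Mt3. Mt1 in flowthrough had 1097 and 582 CPM in KO libraries, against 790.1 and 616 CPM in WT libraries. Mt2 in flowthrough had 148 and 78.2 CPM in KO libraries, against 111 and 96.2 CPM in WT libraries, and Mt3 had 1056 and 529 CPM in KO libraries, against 719 and 572 CPM in WT libraries. Their rises in astrocytes were 1.44 ± 0.25 (adjusted p = 0.0007) for Mt1, 1.62 ± 0.22 (adjusted p = 0.000163) for Mt2 and 1.26 ± 0.26 (adjusted p = 0.002) for Mt3.

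KO 73 was the lowest of the 8 astrocyte libraries for 24 of the 38 genes and KO 62 for 9 others: Atp1b2, Slco1c1, Btbd17, Sox9, Sox2, Nfib, Id3, Id4 and Hepacam. The 24 in KO 73 include all 5 enzymes and all 3 metallothioneins. Of the 8 transcription regulators, KO 73 was lowest for Hes5 alone. The share of all genes for which each library was lowest is not given here, so these counts have no background. The median coefficient of variation over the 38 genes was 24.6% in KO and 18.03% in WT astrocytes, and 12.1% in KO without KO 73; over all genes tested it was 23.7%, 20.8% and 16.2%. Beside this, microglia markers were higher in KO by a median of 0.55 in log2, with 16 of 16 in that direction, oligodendrocyte markers by 0.77 (14 of 14), choroid plexus markers by 0.34 (7 of 7), ependymal markers by 0.16 (6 of 7), oligodendrocyte precursor markers by 0.25 (6 of 8) and endothelial markers by 0.15 (8 of 12), while neuron markers were at -0.10 (7 of 12 lower). Without KO 73 the direction of several lists turned: microglia markers were at -0.10 (6 of 16 higher), choroid plexus markers at -0.12, ependymal markers at -0.72, endothelial markers at -0.08 and neuron markers at 0.02, while oligodendrocyte markers were at 0.29 (14 of 14 higher) and oligodendrocyte precursor markers at 0.07. None of these genes passed the edgeR test singly and 1 passed by DESeq2, the myelin gene Cnp (1.05, adjusted p = 0.000255). With the mean of microglia, oligodendrocyte, endothelial and neuron markers as a covariate, the members' median was -0.03, as given above. That covariate was highest in KO 73, at 7.05 against 6.05 to 6.53 in the other astrocyte libraries. The fit therefore cannot tell these markers apart from other traits of KO 73. The part of these markers in the members' values was not tested. The 16 microglia genes summed to 979 to 4526 CPM in KO astrocytes and 980 to 1878 CPM in WT astrocytes. The 14 oligodendrocyte genes summed to 24658 to 38564 CPM in KO astrocytes and 20482 to 26696 CPM in WT astrocytes. KO 60 and KO 62 were above all WT libraries. Mbp made up most of these sums on average, at a mean of 20462 CPM in KO and 18141 CPM in WT astrocytes. The mean log2 CPM of the 14 genes was instead highest in KO 73, at 8.51 against 6.88 to 7.63 in the other astrocyte libraries. KO 73 also had the highest summed ependymal (901 CPM) and choroid plexus markers (9373 CPM) among the astrocyte libraries.

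The 39 other astrocyte markers served as a second view of the same cells. Of these, 32 were lower in KO astrocytes, with a median of -0.35, and none passed the edgeR test (smallest adjusted p 0.0727). By DESeq2 5 of the 39 passed, all lower in KO (Bcan, Fjx1, Gabrg1, Mfge8 and Scara3). Without KO 73 the median of the 39 was -0.20 (30 lower), and without KO 73 and WT 78 it was -0.14 (28 lower). With the covariate for other cell types 4 passed, Gfap higher and Bcan, Fjx1 and Gabrg1 lower. Under the scaling to these 39 genes 1 passed, Ncan, higher. The shares of all genes that passed under DESeq2, the covariate and this scaling are not given here, so these counts of the 39 have no background. The 4 with the smallest edgeR p were Bcan, the proteoglycan brevican (85.6 ± 13 CPM in KO and 151.7 ± 19 CPM in WT astrocytes; -0.82 ± 0.14), Fjx1 (-0.92 ± 0.17), the GABA receptor subunit gene Gabrg1 (-0.79 ± 0.15) and Mfge8, a secreted phagocytosis adaptor (-1.04 ± 0.22). In this list 11 genes were lower in KO with no overlap (2.27% of all genes were). Libraries were also scaled to equal mean levels of these 39 genes. The median of the 38 was then 0.10 (24 higher, 14 lower), and that of all genes 0.36. The direction of the 38 turned, while their median minus that of all genes was -0.26, against -0.23 under TMM scaling. This scaling shifts every gene by about the same amount, so neither the turn nor the kept difference is a separate result.

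**Figure D4:**
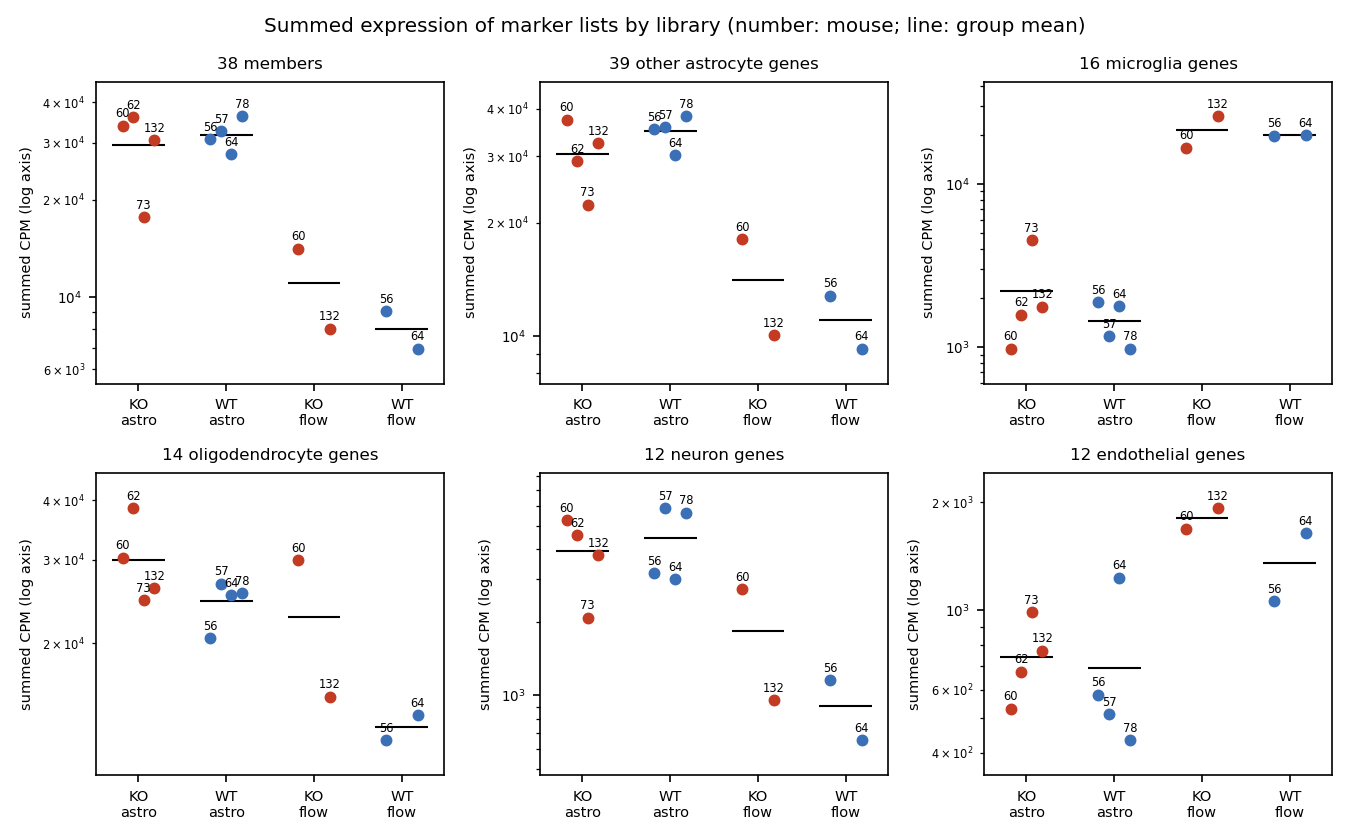
Summed CPM (log axis) of the 38 genes and of 5 marker lists in each library, by group; points are libraries with the mouse number, lines group means, KO red and WT blue. KO 73 is the lowest point of the 38 genes (17729 CPM) and the highest of microglia (4526 CPM) among the astrocyte libraries.

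In flowthrough, none of the 38 genes passed the test of KO against WT (0.00476% of 20997 genes did, 1 gene), also by DESeq2, with 2 mice a group. At an unadjusted p under 0.05, 690 of the 20997 genes tested were higher in KO, and 4.63% differed in either direction. Of the 38 genes 6 met that threshold, all higher in KO: Hes5, Ttyh1, Ntsr2, Slc4a4, Cldn10 and Nfia. In direction, 34 were higher in KO and 4 lower, with a median of 0.41 against 0.04 over all genes; under the scaling to other astrocyte markers 20 were higher and 18 lower. In 8 genes both KO libraries were above both WT libraries (17.1% of all genes were separated so), and in Slco1c1 both were below (16.5%). The 38 genes were measured less precisely here: 23 upper bounds of the 95% intervals lay past a 2-fold rise. KO 60 flowthrough was the highest of the 4 libraries for 32 genes and WT 64 flowthrough the lowest for 27. How often each was the extreme over all genes is not given here. Without KO 60 flowthrough the median was -0.02, without KO 132 flowthrough 0.72. Neuron markers (median 0.86), oligodendrocyte precursor markers (0.77), endothelial markers (0.53) and oligodendrocyte markers (0.26) were higher in KO flowthrough as well, microglia markers were at 0.02, ependymal markers were at -0.93 and choroid plexus markers at -0.57 (6 of 7 lower); their part was not tested. Without KO 60 flowthrough the neuron markers were at 0.09, oligodendrocyte precursor markers at 0.11 and oligodendrocyte markers at -0.01, and without WT 64 flowthrough oligodendrocyte markers were at -0.32. Leaving out 1 library at a time turned the sign of 20 of the 38 genes.

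The interaction asks whether the KO minus WT difference itself differed between the fractions. None of the 38 genes passed, and none of the 20997 genes tested did (0.0%); 828 genes (3.94%) had an unadjusted p under 0.05, 7 of them among the 38, and DESeq2 also called none of the 38. Those 7 were all negative, meaning a lower KO minus WT value in astrocytes than in flowthrough (2.69% of all genes were negative at that threshold): Hes5 (-1.82 ± 0.66), Ntsr2 (-1.16 ± 0.44), Cldn10 (-1.16 ± 0.48), Slc4a4 (-1.11 ± 0.46), Ttyh1 (-1.06 ± 0.44), Glul (-0.79 ± 0.33) and Fgfr3 (-0.78 ± 0.35). Sox9 was the gene with a positive value (0.19 ± 0.20), and the other 37 were negative, with a median of -0.56 against -0.03 over all genes; under the scaling to other astrocyte markers 26 were positive, with a median of 0.16 against 0.67 over all genes. Without KO 60 flowthrough the median was -0.21, and without KO 132 flowthrough -0.93. Leaving out 1 library at a time turned the sign of 9 of the 38.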

How the data were processed

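RNA from 8 mice was amplified with a SMARTer kit after Trizol and column extraction, per the labels' protocols, and sequenced as 12 libraries. The authors deposited 1 table per library with 41388 genes, their exon coordinates (GRCm38) and exon lengths, and 3 measures of expression. Per the file headers, these are raw read counts, CPM and RPKM. In the deposited tables the counts are whole, CPM is the count divided by the library's total and scaled to 1000000, and RPKM is CPM per kilobase of exon, as checked on the values. The submitters' processing notes name featureCounts 1.4.6-p5, Subread, STAR 2.5.1a, bcl2fastq and GRCm38; what each tool did, the annotation release, the strand setting and the treatment of multiply mapped reads were not given in the sources used here. Of the gene identifiers, 40254 had a symbol in the reference name table.

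The counts were tested with edgeR 4.0.16 (R 4.3.3): filterByExpr by group, TMM factors, glmQLFit and glmQLFTest, two-sided, with Benjamini-Hochberg adjustment over all genes tested and a threshold of 0.05. KO against WT astrocytes was fitted on 8 libraries (18527 genes, 6 residual degrees of freedom). The flowthrough, interaction and fraction comparisons were fitted on all 12 with 4 group means (20997 genes, 8 degrees of freedom). Log2 differences are KO minus WT or astrocytes minus flowthrough, given ± SE; CPM and RPKM in the text were recomputed from counts with the TMM factors of the 12-library fit. Replicates are separate mice. Alternatives were RLE and library size scaling, no filter, DESeq2 1.42.0, each library left out, 6 or 8 libraries, a covariate for other cell types, the mouse as a block, and scaling to the 39 other astrocyte markers, the last chosen after seeing the data. The fits were also run on simulated counts, and the results are not given here. Those counts held no group differences beyond the changes added, and no pairing of libraries by mouse. They therefore do not show how the fits handle such features of the data.

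Mouse numbers pair the fractions of the same animal in 4 mice; deviations of the paired libraries from their group means correlated at 0.352 (mouse 60), -0.0066 (132), 0.155 (56) and 0.251 (64). Replicate libraries differed by more than sampling noise (chi-square per gene at least 24.5). The 38 genes, their roles and the marker lists were chosen with earlier results of these data known. Every one of the 38 is named. Values in all libraries are given for genes at the extremes of each role in KO minus WT, the 3 with the largest and the 3 with the smallest fraction difference, Aldh1l1, Atp1b2 and the metallothioneins; F3, Id4, Fgfr3 and Gpr37l1 were added after their values were seen.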

Additional observations from a re-analysis of the deposited data

Results flagged for a closer look

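In 6 of 76 groups of 4 libraries (38 genes in KO and in WT astrocytes), 1 library stood apart from the other 3 by more than the 95% critical value of Dixon's test, 0.829 of the group's range; chance flags about 1 in 20 groups. WT 56 was the high library for 3 genes: Atp1b2 at 1934 CPM (the other WT libraries 1411 to 1451 CPM), Atp13a4 at 72.7 CPM (43.2 to 47.0 CPM) and Gja1 at 1878 CPM (1205 to 1305 CPM). WT 64 was low for Aqp4 at 243 CPM (551 to 579.8 CPM). KO 73 was low for Ntsr2 at 105 CPM (the other KO libraries 179.9 to 191 CPM), and KO 62 for Sox2 at 13.9 CPM (20.6 to 21.3 CPM). The causes were not tested.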

How the results depend on the processing

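The number of the 38 genes called stayed at 0 for KO against WT in astrocytes, for KO against WT in flowthrough and for the interaction under each alternative run (RLE or library size scaling, no filter, DESeq2, each library left out, other sets of libraries, the covariate and scaling to the other astrocyte markers). For astrocytes against flowthrough, 37 were called under each alternative but scaling to the other astrocyte markers (18 called, median 0.090). With the mouse as replicate block, 37 were called (median 1.82; 1.77 for the same 8 libraries with no block) and the interaction median was -0.41, so the pairing changed no call. Leaving out 1 library gave medians of -0.32 to -0.12 in astrocytes, -0.021 to 0.72 in flowthrough, -0.93 to -0.21 for the interaction and 1.60 to 1.97 between fractions. Library size scaling put the median of all genes at -0.14 and of the 38 at 1.63 between fractions. Scaling to the other astrocyte markers gave medians of 0.10, 0.022 and 0.16 in astrocytes, flowthrough and the interaction, with all genes at 0.36, -0.29 and 0.67. In astrocytes it turned the sign of 15 of the 38, and between fractions of 14; of the genes given in full these were, in astrocytes, Aldh1l1 (0.078), Atp1b2 (0.12), Slco1c1 (0.017), Ntsr2 (0.078), Sox9 (0.29) and Mt3 (0.12), and, between fractions, Aldh1l1 (-0.11), Glul (-0.63), Sox9 (-1.12), Nfia (-0.92), Mlc1 (-0.034), Mt1 (-0.27), Mt2 (-0.080) and Mt3 (-0.44). Without KO 73 and WT 78, Aldh1l1 was at 0.092 and Mt3 at 0.15 in astrocytes; with the covariate they were at 0.10 and 0.16. Leaving out 1 library turned the sign of 11 of the 38 in astrocytes and of 0 between fractions, none of the 11 called; of the genes given in full these were Aldh1l1 (-0.59 to 0.029), Agt (-0.11 to 0.23) and Aqp4 (-0.16 to 0.25), and the others were Aldoc, Acsbg1, Ttyh1, Ndrg2, Sox2, Nfib, Nfix and Gja1. Beyond the construction of each alternative, causes were not tested. With 2 mice a group, 23 of the 38 flowthrough intervals reached past a 2-fold rise.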
